A study of Homo sapiens with 5 samples.

Results

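The SNAI1-overexpressing HMLE line was set against the TWIST1 and ZEB2 lines, by its array column against theirs, which uses 3 of the 5 arrays of the series. HMLE is an established line of immortalised human mammary epithelial cells, and each derivative overexpresses 1 transcription factor: SNAI1, TWIST1, ZEB2 or FOXQ1, with a LACZ line as the control. The lines were untreated, and RNA was taken from cultures near 80% confluence. The vectors, promoters and clonality of the lines are not given in the sources used here. With 1 array per line no difference had a replicate check, so no test was possible and no p-value is given. The number of arrays limits the precision of every value. The FOXQ1 and LACZ arrays took no part in choosing genes by their distance from TWIST1 and ZEB2. They are given afterwards as context, although they did help to choose the probe set of a gene and the level floor.

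In an epithelial to mesenchymal transition (EMT), epithelial cells loosen their junctions, lose polarity and acquire a motile, matrix-producing state. SNAI1 and ZEB2 are zinc finger proteins that bind E-box sequences and repress epithelial genes, while TWIST1 is a basic helix-loop-helix factor that binds related E-boxes and can activate or repress its targets. The question here was which genes set the SNAI1 model apart from both other classical EMT factors.

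The values covered 14912 named genes on chromosomes 1 to 8 and part of 9, of which 7790 were protein-coding. They are deposited levels read as log2, because the base is not stated, so a difference of 1 is a 2-fold change only if that reading is right. A gene was called higher or lower when its SNAI1 level differed at least 2-fold, in the same direction, from both the TWIST1 and the ZEB2 level, and when the brighter side was at or above a floor of 4.72, the median of the gene mean levels. The distance to the nearer line is the smaller of the 2 differences. Over all 65521 probe sets the array medians were 4.04 on SNAI1, 4.0 on TWIST1 and 4.03 on ZEB2. The TWIST1 gene was at 9.18 on the SNAI1 array, 9.96 on TWIST1 and 8.55 on ZEB2, and the ZEB2 gene at 6.23 on SNAI1, 7.03 on TWIST1 and 7.39 on ZEB2, so each was brightest on the array that bears its name. For the ZEB2 gene that margin was small, with TWIST1 minus ZEB2 at -0.36. The median absolute difference between these arrays was 0.31 over genes at the floor or above. For the TWIST1 gene SNAI1 minus TWIST1 was -0.78, also under 2-fold. On LACZ the TWIST1 gene was at 5.55 and the ZEB2 gene at 3.57, and on FOXQ1 at 8.2 and 6.85. Both genes thus stood above the control on the SNAI1 and FOXQ1 arrays too. The SNAI1 gene itself was not analysed here, nor were the keratins and CDH1. The mammary identity of the lines was therefore checked on few markers. All 9 measured basal and myoepithelial markers were at or above the floor on at least 1 of the 3 arrays, against 4 of 12 luminal markers. Among luminal markers ESR1, the estrogen receptor, stood at 3.12 on SNAI1, 3.24 on TWIST1 and 3.33 on ZEB2. MUC1, another luminal marker, was above the floor at 8.34 on SNAI1, 9.32 on TWIST1 and 7.72 on ZEB2. The basal list includes SNAI2, itself an EMT factor, so these counts do not settle mammary identity.

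Far more genes were lower than higher on SNAI1. On the values as deposited, 456 of 14912 genes (3.06%) were lower than on both TWIST1 and ZEB2, and 64 (0.429%) were higher. Together they made 520 genes (3.49%), of which 12.3% were higher. The lower genes included the immunoproteasome subunit PSMB9, the laminin receptor subunit ITGA6 and the viral RNA sensor IFIH1, and the higher genes included the collagen chains COL1A2 and COL6A3 and the hyaluronan synthase HAS2. Most called genes lay close to the threshold: 332 of the 456 lower genes and 50 of the 64 higher genes were between 1 and 1.5 from the nearer line. The median distance was 1.26 below for lower genes and 1.2 above for higher genes.

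**Figure D1:**
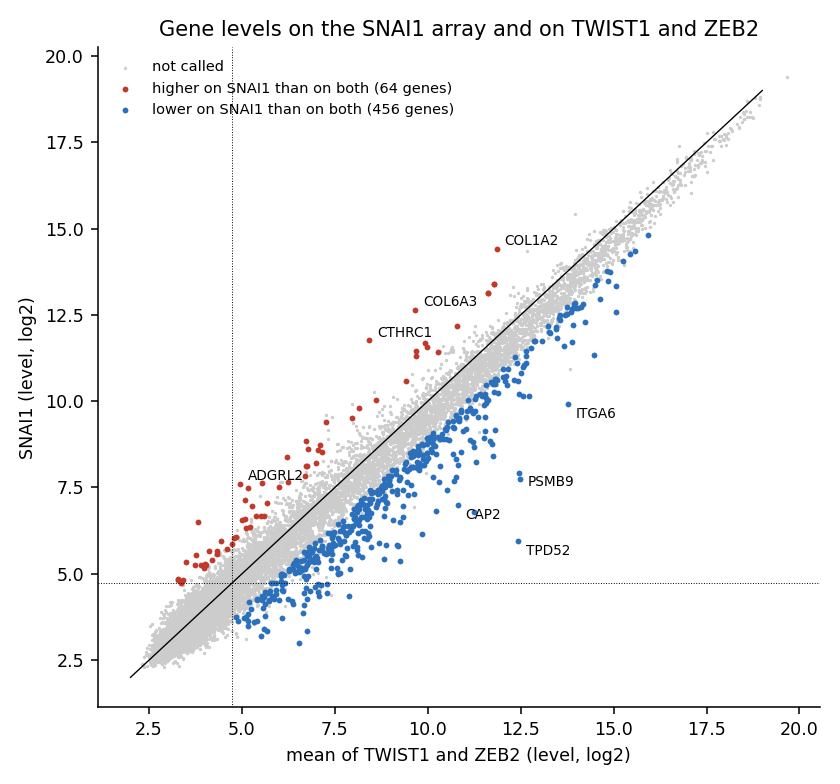
Level of each gene on the SNAI1 array (vertical axis, log2) against the mean of its TWIST1 and ZEB2 levels (horizontal axis, log2), with 64 genes called higher in red, 456 called lower in blue and other genes in grey. The solid line marks equal levels and the dotted lines the floor of 4.72; the blue points are spread along most of the range, and COL1A2 and COL6A3 are among the brighter red points.

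The balance of the directions depended on how the arrays were put on a common scale. After centring each array on its median gene at or above the floor, 186 genes were higher (1.25%) and 182 lower (1.22%), so that 50.5% of called genes were higher. After centring on the median protein-coding gene, an alternative added after seeing the data, 387 were higher and 107 lower (78.3% higher). Calls that held as deposited and also after quantile normalization, median centring and loess numbered 56 higher and 182 lower. Among the 8005 genes of any class at or above the floor on any of the 3 arrays, 5.7% were lower and 0.8% higher. Protein-coding genes as a body were lower on SNAI1. Over 5143 protein-coding genes at or above the floor on any of the 3 arrays, the median of SNAI1 minus the mean of TWIST1 and ZEB2 was -0.46, and 3761 were below both lines against 296 above both. Of these genes 431 were called lower (8.38%) and 21 higher (0.408%). Pseudogene probe sets with a mean level at the floor or above had a median difference of 0.02, long non-coding RNA probe sets 0.02 and probe sets without a gene symbol 0.09. The part of this offset in the results below was not tested. These protein-coding values (-0.46, 8.38% lower and 0.408% higher) are the background against which the lists below are to be read.

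SNAI1 also lay further from each of the other lines than they lay from each other. At the same threshold and floor, SNAI1 was 2-fold above TWIST1 for 201 genes (1.35%) and below it for 1048 (7.03%), and above ZEB2 for 201 genes (1.35%) and below it for 939 (6.3%). TWIST1 was above ZEB2 for 416 genes (2.79%) and below it for 324 (2.17%). These comparisons share arrays. Over the same 8005 genes the median absolute difference was 0.39 between SNAI1 and the mean of both, and 0.31 between TWIST1 and ZEB2. After median centring SNAI1 differed 2-fold from TWIST1 for 932 genes and from ZEB2 for 883, while TWIST1 differed from ZEB2 for 723.

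The genes furthest below both lines came from several functional classes. TPD52, a protein of vesicle trafficking often overexpressed in tumours, had a level of 5.95 on SNAI1, 12.27 on TWIST1 and 12.59 on ZEB2. Its distance of -6.32 from the nearer line was the largest of any called gene. Its probe sets differed, and with the median of both the distance was -3.41. CAP2, a regulator of actin turnover, was at 6.98 on SNAI1, 10.92 on TWIST1 and 10.69 on ZEB2, a distance of -3.71. In both cases TWIST1 and ZEB2 stood close together and SNAI1 was the low one of these 3 lines. TPD52 was also below LACZ on FOXQ1, at 9.43 against 13.08. CAP2 was above LACZ on FOXQ1, at 11.92 against 10.57. PLS1, an actin-bundling protein of epithelial microvilli, was under the floor on SNAI1 at 4.36, against 7.72 on TWIST1 and 8.06 on ZEB2. PODXL, a sialomucin of the apical surface, was at 6.16 on SNAI1, 9.46 on TWIST1 and 10.22 on ZEB2. LACZ stood at 6.19 for PODXL, so there the SNAI1 line had the level of the control line, while for PLS1 the control was above all 3 lines at 10.1. SERINC2, a membrane protein, was at 11.34 on SNAI1, 14.21 on TWIST1 and 14.71 on ZEB2. FOXQ1 was close to SNAI1 for SERINC2 at 11.61, and LACZ was at 14.81. UCHL1, a deubiquitinating enzyme of neurons, was at 7.75 on SNAI1, 10.58 on TWIST1 and 14.39 on ZEB2, with 4.11 on LACZ. It was thus above the control on all 3 arrays and least so on SNAI1.

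**Figure D2:**
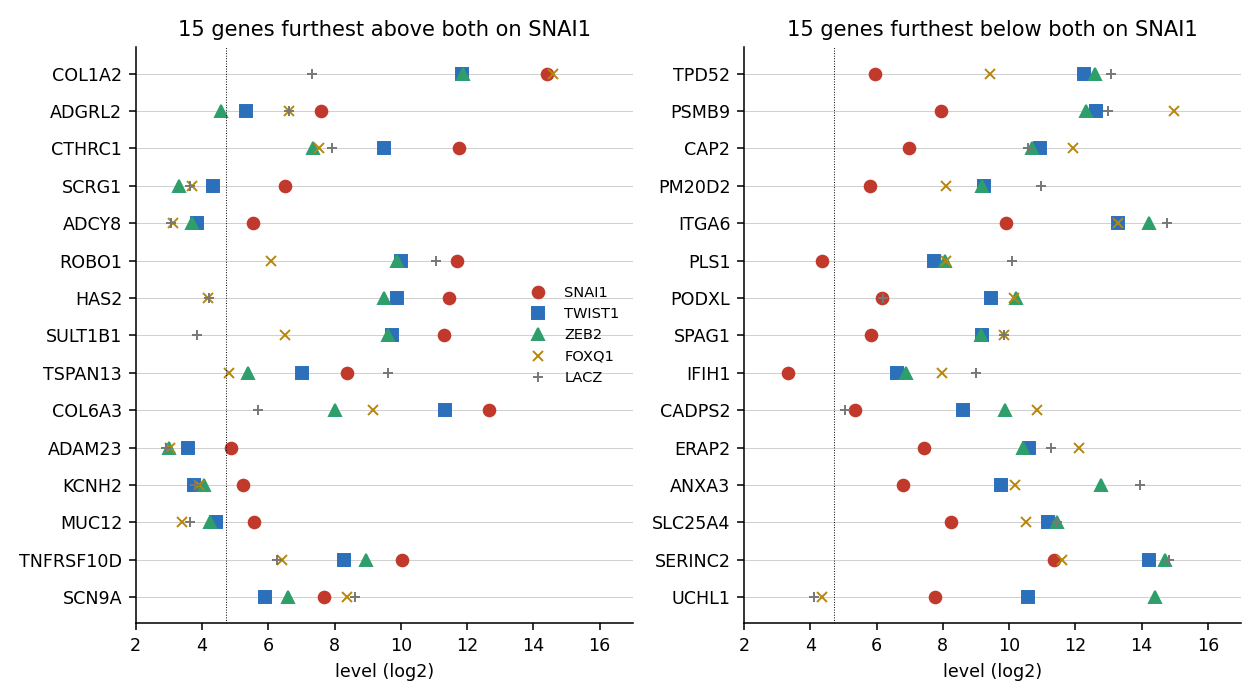
Levels (log2) on each of the 5 arrays of the 15 protein-coding genes furthest above (left) and furthest below (right) both TWIST1 and ZEB2 on the SNAI1 array, ordered by distance to the nearer line; each point is 1 array and the dotted line is the floor of 4.72. SNAI1 is the lowest of its 3 lines in every row on the right, with TPD52 at 5.95 against 12.27 on TWIST1 and 12.59 on ZEB2, and the highest of them in every row on the left.

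The 64 higher genes comprised 21 protein-coding genes, 21 pseudogenes, 8 small nuclear RNA genes, 8 long non-coding RNA genes and 6 microRNA genes. The protein-coding gene furthest above both lines was a collagen gene. COL1A2, a chain of type I collagen, was at 14.42 on SNAI1, 11.84 on TWIST1 and 11.88 on ZEB2, a distance of 2.54, with 14.6 on FOXQ1 and 7.32 on LACZ. Taking the median of its probe sets, the distance was 2.0. CTHRC1, a secreted protein of collagen-rich matrix, was at 11.76 on SNAI1, 9.5 on TWIST1 and 7.35 on ZEB2, with 7.93 on LACZ. The LACZ level of CTHRC1 lay between the TWIST1 and ZEB2 levels, whereas COL1A2 was far above LACZ on all 3 lines. HAS2, which makes hyaluronan, was at 11.45 on SNAI1, 9.87 on TWIST1 and 9.49 on ZEB2, with 4.22 on LACZ. COL6A3, a chain of type VI collagen, was at 12.65 on SNAI1, 11.33 on TWIST1 and 8.0 on ZEB2, with 5.7 on LACZ. Both were highest on SNAI1 and lowest on LACZ among these 4 arrays. ROBO1, a receptor for SLIT guidance proteins, was at 11.68 on SNAI1, 10 on TWIST1 and 9.87 on ZEB2. ADGRL2, an adhesion G protein-coupled receptor, was at 7.59 on SNAI1, 5.32 on TWIST1 and 4.58 on ZEB2. For both receptors TWIST1 and ZEB2 stood nearer each other than either stood to SNAI1. LACZ was at 11.05 for ROBO1 and 6.62 for ADGRL2, below SNAI1 but above TWIST1 and ZEB2. SCRG1 was at 6.51 on SNAI1, 4.34 on TWIST1 and 3.3 on ZEB2, a distance of 2.17. ADCY8, an adenylyl cyclase, was at 5.55 on SNAI1, 3.85 on TWIST1 and 3.69 on ZEB2. Both were under the floor on TWIST1 and ZEB2. SULT1B1, a sulfotransferase, was at 11.3 on SNAI1, 9.73 on TWIST1 and 9.62 on ZEB2. TNFRSF10D, a decoy receptor for the death ligand TRAIL, was at 10.04 on SNAI1, 8.27 on TWIST1 and 8.94 on ZEB2, a distance of 1.1, close to the threshold.

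The list of fibrillar collagens and matrix glycoproteins was called in both directions. Of 38 measured members 24 were at or above the floor, 2 of them were higher (COL1A2 and COL6A3) and 1 was lower, and their median difference was -0.45. Protein-coding genes had a median of -0.46, and 0.408% of them were higher against 8.38% lower. After median centring 3 matrix members were higher and none was lower. COL12A1, a collagen that associates with fibrils, was the lower member, at 12 on SNAI1, 13.34 on TWIST1 and 13.18 on ZEB2, but it was not called after median centring. The 11 collagen-modifying enzymes at the floor or above had no called member and a median of -0.01. COL1A2 is also a stromal fibroblast marker. That marker list had 13 measured members, 8 at the floor or above, 1 higher and none lower, with a summed level of 73.9 on SNAI1, 81.2 on TWIST1 and 74.3 on ZEB2.

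The list of HLA class I and antigen processing genes was lowest by median among lists with 10 or more members at the floor or above. The immunoproteasome cuts proteins into peptides, the TAP transporter carries these into the endoplasmic reticulum, ERAP aminopeptidases trim them, and HLA class I molecules present them to T cells. All 15 measured members were at or above the floor, 7 were lower on SNAI1 than on both other lines, none was higher, and 14 lay below both. Their median difference was -1.13, against -0.46 for protein-coding genes, of which 8.38% were lower. After median centring 6 of the 7 were still called and the median was -0.77, against -0.11 for protein-coding genes, of which 176 of 5143 were then lower.

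PSMB9, an inducible catalytic subunit of the immunoproteasome, was at 7.93 on SNAI1, 12.61 on TWIST1 and 12.32 on ZEB2, a distance of -4.39. PSMB8, another such subunit, was at 8.77 on SNAI1, 11.5 on TWIST1 and 11.97 on ZEB2. For both subunits SNAI1 was the lowest of the 5 arrays and FOXQ1 the highest, at 14.96 for PSMB9 and 13.56 for PSMB8. TAP1, a subunit of the peptide transporter, was at 5.74 on SNAI1, 7.81 on TWIST1 and 7.84 on ZEB2. Its partner TAP2 was at 5.46 on SNAI1, 6.45 on TWIST1 and 6.68 on ZEB2, a distance of -0.99 that narrowly missed the threshold. The transporter partners were both lowest on SNAI1 among the 5 arrays. ERAP2 was at 7.44 on SNAI1, 10.6 on TWIST1 and 10.42 on ZEB2. ERAP1 was at 5.77 on SNAI1, 7.62 on TWIST1 and 8.55 on ZEB2. Each step from peptide cutting to trimming thus had a called member. MICB, a stress-induced ligand of the NKG2D receptor, was at 6.64 on SNAI1, 8.1 on TWIST1 and 8.74 on ZEB2. HLA-B was at 6.17 on SNAI1, 7.38 on TWIST1 and 7.23 on ZEB2. It was the member not called after median centring. HLA-C, at 6.82 on SNAI1, 8.37 on TWIST1 and 7.74 on ZEB2, was not called, and HLA-G, at 7.33 on SNAI1, 7.54 on TWIST1 and 7.09 on ZEB2, lay between the other lines. HLA genes are near-identical paralogs, so probe sets may share signal and their separate values are uncertain.

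Interferon-stimulated genes, the antiviral genes induced through STAT and IRF factors, showed a like pattern. Of 28 measured members 21 were at or above the floor, 8 of these were lower and none was higher, 17 lay below both lines, and the median was -1.01. Of protein-coding genes 8.38% were lower, 3761 of 5143 lay below both and the median was -0.46, so the count below both is near that background. After median centring 6 were lower and the median was -0.65. IFIH1, the RNA sensor MDA5, was under the floor on SNAI1 at 3.34, against 6.62 on TWIST1 and 6.9 on ZEB2. DTX3L, a ubiquitin ligase, was at 5.54 on SNAI1, 8.4 on TWIST1 and 7.84 on ZEB2. PARP14, an ADP-ribosyltransferase, was at 8.68 on SNAI1, 12 on TWIST1 and 10.49 on ZEB2. SNAI1 was the lowest of the 5 arrays for each of these 3 genes. IRF1, a transcription factor known to activate antigen processing genes, was at 5.18 on SNAI1, 7.86 on TWIST1 and 7.24 on ZEB2. IRF1 and called genes of the antigen processing list were low on the same array, and a link between them was not tested. The GTPase GBP1 was at 8.88 on SNAI1, 11.07 on TWIST1 and 11.21 on ZEB2. The list did not move as a block: IFI44, at 7.3 on SNAI1, 7.6 on TWIST1 and 6.96 on ZEB2, lay between the lines, and IFI44L, at 6.77 on SNAI1, 6.27 on TWIST1 and 6.47 on ZEB2, lay above both. EIF2AK2 and DDX60 were called as deposited but not after median centring.

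**Figure D3:**
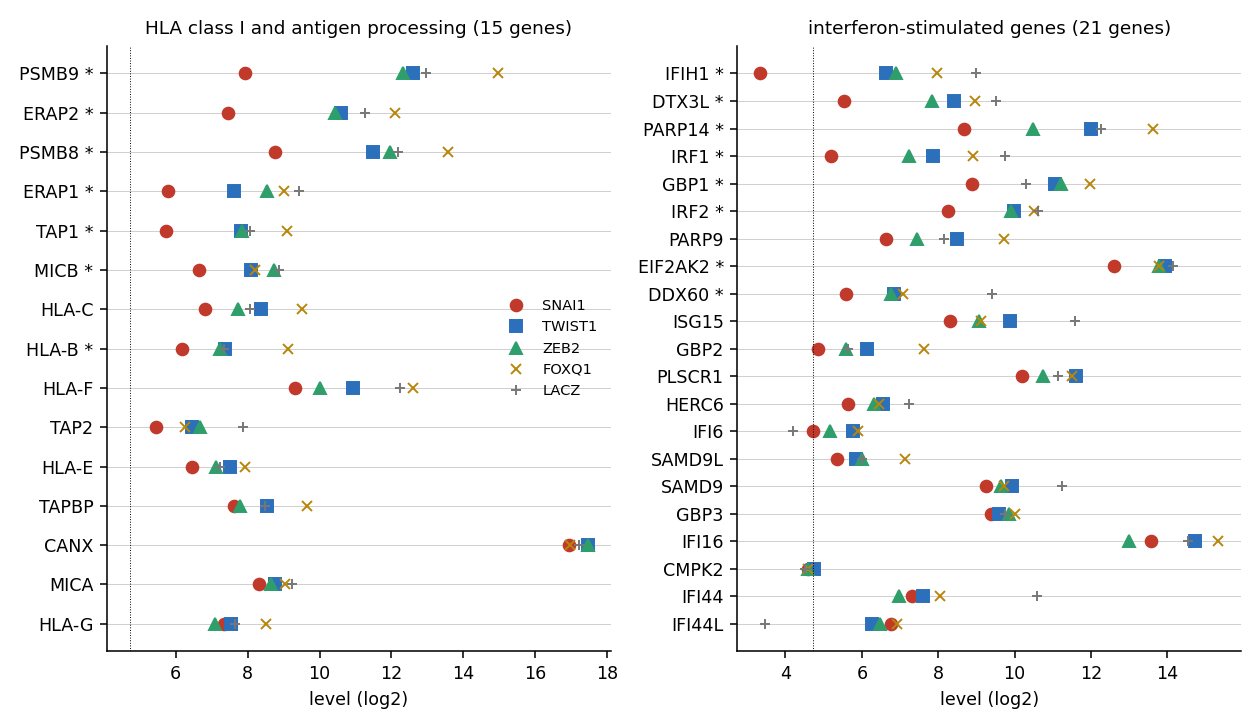
Levels (log2) on each of the 5 arrays of the 15 HLA class I and antigen processing genes (left) and the 21 interferon-stimulated genes (right) at or above the floor of 4.72 (dotted line) on any of the SNAI1, TWIST1 and ZEB2 arrays, ordered by SNAI1 minus the mean of TWIST1 and ZEB2. Each point is 1 array, an asterisk marks a gene called lower, and SNAI1 is the lowest of its 3 lines for 14 of 15 genes on the left and 17 of 21 on the right.

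Markers of other immune cells were mostly under the floor. HLA class II genes with CD74 had 12 measured members, 3 at the floor or above and none called, numbers too small to read against the 8.38% of protein-coding genes that were lower. Of 20 measured leukocyte markers 6 were at or above the floor and none was called, with a median of 0.06 and a summed level of 84.6 on SNAI1, 88.9 on TWIST1 and 83.6 on ZEB2. PTPRC, which marks leukocytes as CD45, was near the floor at 4.9 on SNAI1, 4.9 on TWIST1 and 4.94 on ZEB2. In bulk RNA, fewer cells expressing a gene and less RNA per cell cannot be told apart. On the arrays that the rule did not use, the 15 antigen processing genes summed to 156.5 on FOXQ1 and 148.1 on LACZ. They summed to 116.7 on SNAI1, 141.1 on TWIST1 and 139.6 on ZEB2, so SNAI1 was the lowest of 5. SNAI1 was also the lowest of 5 over all 7790 protein-coding genes, with a summed level of 54939.1 against 56943.6 on LACZ, the next lowest. That rank alone is thus not particular to the antigen processing genes.

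The 250 bases before the RefSeq start (GRCh38.p14) are shown for 3 of these genes because TAP1 and PSMB9 are called lower and face away from each other across a shared region, their windows overlapping at the far ends, and because IFIH1 carried the largest distance of the interferon list. They were chosen after their values were seen. Capitals mark the core of the interferon-stimulated response element, searched as GAAA, any base in 2 positions (NN) and GAAA, or its reverse complement. The windows lie at chr6:32853705-32853954 on the minus strand for TAP1, chr6:32853942-32854191 on the plus strand for PSMB9 and chr2:162318685-162318934 on the minus strand for IFIH1, each upstream of the first exon.
TAP1: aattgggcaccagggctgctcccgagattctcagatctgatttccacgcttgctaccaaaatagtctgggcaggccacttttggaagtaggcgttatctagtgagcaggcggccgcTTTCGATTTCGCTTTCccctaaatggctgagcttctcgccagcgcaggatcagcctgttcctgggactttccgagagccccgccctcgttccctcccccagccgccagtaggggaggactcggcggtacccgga
PSMB9: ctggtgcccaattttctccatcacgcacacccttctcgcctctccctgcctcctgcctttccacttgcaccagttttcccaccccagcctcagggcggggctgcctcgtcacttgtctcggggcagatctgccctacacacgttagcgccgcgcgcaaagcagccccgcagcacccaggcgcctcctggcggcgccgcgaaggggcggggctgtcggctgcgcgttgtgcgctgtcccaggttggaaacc
IFIH1: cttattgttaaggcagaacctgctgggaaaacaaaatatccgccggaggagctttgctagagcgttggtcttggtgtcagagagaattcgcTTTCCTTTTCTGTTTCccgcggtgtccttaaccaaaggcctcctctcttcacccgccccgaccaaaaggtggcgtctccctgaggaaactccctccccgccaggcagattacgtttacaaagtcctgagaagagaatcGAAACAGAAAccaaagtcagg
The TAP1 window held 2 overlapping matches, starting at positions -134 and -128 from the start, and the IFIH1 window held matches at -159, -153 and -21. The PSMB9 window held none of the searched motifs, which says nothing of the factors that bind there. The element did not separate the called genes from the others. Of 7 called interferon-stimulated genes with a promoter sequence 4 had a match (57.1%), and of 12 not called 6 had a match (50%), against 2.6% of 4247 protein-coding genes at the floor or above. In the antigen processing list, 1 of 7 called genes and 3 of 7 genes not called had a match.

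Adhesion genes were lower in specific members. ITGA6, the laminin-binding integrin subunit of hemidesmosomes and a marker of basal and stem-like mammary cells, was at 9.92 on SNAI1, 13.29 on TWIST1 and 14.23 on ZEB2, with 13.27 on FOXQ1 and 14.76 on LACZ. Its distance of -3.37 was the largest among integrins and it was called in every scaling. Of 8 integrin subunits at the floor or above 3 were lower, none was higher and the median was -0.25, against 8.38% lower and a median of -0.46 for protein-coding genes. The list median was thus less shifted than that background. ITGB5 and ITGB6, at 7.36 and 4.32 on SNAI1, 8.69 and 5.6 on TWIST1 and 8.6 and 5.6 on ZEB2, were not called after median centring. Taking the median of the 3 probe sets of ITGB6, its distance was -0.21 in place of -1.28, which also ends its call. ITGAV, their alpha partner, was at 12.04 on SNAI1, 11.95 on TWIST1 and 11.87 on ZEB2, so the partner subunit differed by under 2-fold. CLDN1, a tight junction claudin, was under the floor at 2.99 on SNAI1, against 5.75 on TWIST1, 7.3 on ZEB2 and 12.22 on LACZ. It was the 1 lower gene of 8 adherens and tight junction genes at the floor or above, whose median was -0.9, where 8.38% of protein-coding genes were lower. OCLN, occludin, was at 5.13 on SNAI1, 6.12 on TWIST1 and 6.11 on ZEB2, just inside 2-fold of both, and at 12.86 on LACZ. PKP1, a desmosomal plakophilin, was at 7.3 on SNAI1, 8.57 on TWIST1 and 9.79 on ZEB2. It was called as deposited but not after median centring. DSP, desmoplakin, was at 10.07 on SNAI1, 9.76 on TWIST1 and 10.09 on ZEB2.

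The window before ITGA6 is shown because E-boxes are the sites these factors bind. It lies at chr2:172427086-172427335 on the plus strand, upstream of the first exon, with CACCTG or CATCTG, or a reverse complement, in capitals.
ITGA6: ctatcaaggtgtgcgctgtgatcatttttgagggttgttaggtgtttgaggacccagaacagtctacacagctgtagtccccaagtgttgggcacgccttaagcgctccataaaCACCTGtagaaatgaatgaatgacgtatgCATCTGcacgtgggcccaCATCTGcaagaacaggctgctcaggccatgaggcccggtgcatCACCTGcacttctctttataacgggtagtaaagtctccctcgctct
CACCTG, the E-box of SNAI and ZEB factors, was found at -136 and -46, and CATCTG, bound by TWIST1, at -107 and -89. Such matches were common. CACCTG on either strand was in 68 of 362 promoters of lower protein-coding genes (18.8%), in 15% of those of protein-coding genes at the floor or above and in 17.1% of all measured protein-coding genes. CATCTG or CATATG was in 9.7% of lower, 8.9% of floor and 10.7% of all such promoters.

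EMT transcription factors stayed near the protein-coding background. Of 13 measured members 10 were at or above the floor, 1 was lower and none was higher, with a median of -0.29, beside 8.38% lower and a median of -0.46 for protein-coding genes. PRRX1, a homeobox factor of mesenchyme, was at 8.94 on SNAI1, 10.71 on TWIST1 and 12.3 on ZEB2, with 7.36 on FOXQ1 and 3.84 on LACZ, so its level on SNAI1 lay above FOXQ1 and LACZ and below TWIST1 and ZEB2. SNAI2, a close relative of SNAI1, was at 15.43 on SNAI1, 16.75 on TWIST1 and 15.72 on ZEB2. RUNX2, the osteoblast factor, was at 13.22 on SNAI1, 13.54 on TWIST1 and 11.81 on ZEB2, nearer TWIST1 than ZEB2. Mesenchymal surface and cytoskeletal genes had 1 lower member of 11 at the floor or above, a share near the same background, and a median of -0.75. That member, PDPN, podoplanin, was at 4.27 on SNAI1, 7.98 on TWIST1 and 5.53 on ZEB2. It was not called after median centring.

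Some members of the growth factor, receptor and cytokine lists were called lower on SNAI1 than on both TWIST1 and ZEB2. Of protein-coding genes 8.38% were lower and 0.408% higher. IGFBP2, a binding protein of insulin-like growth factors, was at 6.82 on SNAI1, 9.37 on TWIST1 and 11.07 on ZEB2. The list of these binding proteins had 2 lower of 6 members at the floor or above and a median of -1.16. The receptor tyrosine kinases EGFR, MET and EPHA2 were called lower as deposited, with distances of -1.37, -1.16 and -1.19, but not after median centring. They were the 3 called of 15 members at the floor or above, whose median was -0.9. FZD6, a WNT receptor, was at 11.6 on SNAI1, 13.77 on TWIST1 and 13.54 on ZEB2. TGFBR3, the TGF-beta co-receptor betaglycan, was at 4.67 on SNAI1, 8.08 on TWIST1 and 6.15 on ZEB2. ANGPT1, the TEK ligand, was at 3.72 on SNAI1, 6.45 on TWIST1 and 5.68 on ZEB2. The calls of these 3 signalling genes held in every scaling, but their lists did not stand below the protein-coding median of -0.46 by much or at all. FZD6 was the 1 lower gene of 7 at the floor or above in the WNT list, whose median was -0.2. TGFBR3 was the 1 lower gene of 16 in the TGF-beta, activin and BMP list, whose median was -0.21. ANGPT1 was 1 of 2 lower genes among 16 EGF, FGF and related ligands, whose median was -0.47. Of 26 inflammatory cytokines and NF-kB targets at the floor or above, 4 were lower and 1 was higher, and the median was -0.42. CXCL1, a neutrophil chemokine, was at 10.14 on SNAI1, 12.17 on TWIST1 and 12.93 on ZEB2. CCL20, a chemokine of CCR6-bearing cells, was at 8.52 on SNAI1, 7.44 on TWIST1 and 6.84 on ZEB2. The 2 chemokines thus lay on opposite sides. IL7R, the interleukin 7 receptor, was at 10.15 on SNAI1, 11.99 on TWIST1 and 13.47 on ZEB2. Against the control the called genes were mixed. On LACZ, IGFBP2 was at 5.75, TGFBR3 at 4.15 and IL7R at 9.4, each below its SNAI1 level. ANGPT1 was at 3.93 on LACZ, close to SNAI1. FZD6, at 14.46 on LACZ, and CXCL1, at 12.77, were below the control on SNAI1, as were EGFR, MET and EPHA2.

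Axon guidance and neuronal genes, which include many adhesion and migration cues, were called in both directions. Of 29 at the floor or above 3 were higher and 6 lower, and the list median was -0.34, against 0.408% higher, 8.38% lower and a median of -0.46 for protein-coding genes. SLIT2, a secreted ligand of ROBO receptors, was at 6.5 on SNAI1, 8.03 on TWIST1 and 10.46 on ZEB2. Its receptor ROBO1 was higher on SNAI1 than on both, as given above, with LACZ in between. SEMA3F, a secreted semaphorin, was at 5.17 on SNAI1, 7.44 on TWIST1 and 7.33 on ZEB2. MAP1B, a microtubule-associated protein, was at 12.59 on SNAI1, 14.52 on TWIST1 and 15.58 on ZEB2. The neuronal adhesion gene NFASC was higher at 8.6 on SNAI1, 7.59 on TWIST1 and 5.96 on ZEB2, a distance of 1.01 at the threshold.

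Proliferation and general cell functions mostly stayed near the protein-coding background, where 8.38% of genes were lower and the median was -0.46. Of 25 mitotic genes 2 were lower and the median was -0.5, and of 23 DNA replication genes 1 was lower and the median was -0.62. BUB1, a spindle checkpoint kinase, was at 10.6 on SNAI1, 12.51 on TWIST1 and 12.11 on ZEB2. The 14 housekeeping genes had a median of -0.48 with none called, and the 45 replication-dependent histone genes a median of -0.22 with none called. Of 19 NRF2 targets and glutathione genes at the floor or above 2 were lower. GCLC, the catalytic subunit of glutathione synthesis, was at 7.43 on SNAI1, 9.38 on TWIST1 and 9.3 on ZEB2. The shift of the housekeeping genes is thus as large as that of protein-coding genes in general, and a list median near -0.5 does not stand apart from it.

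**Figure D4:**
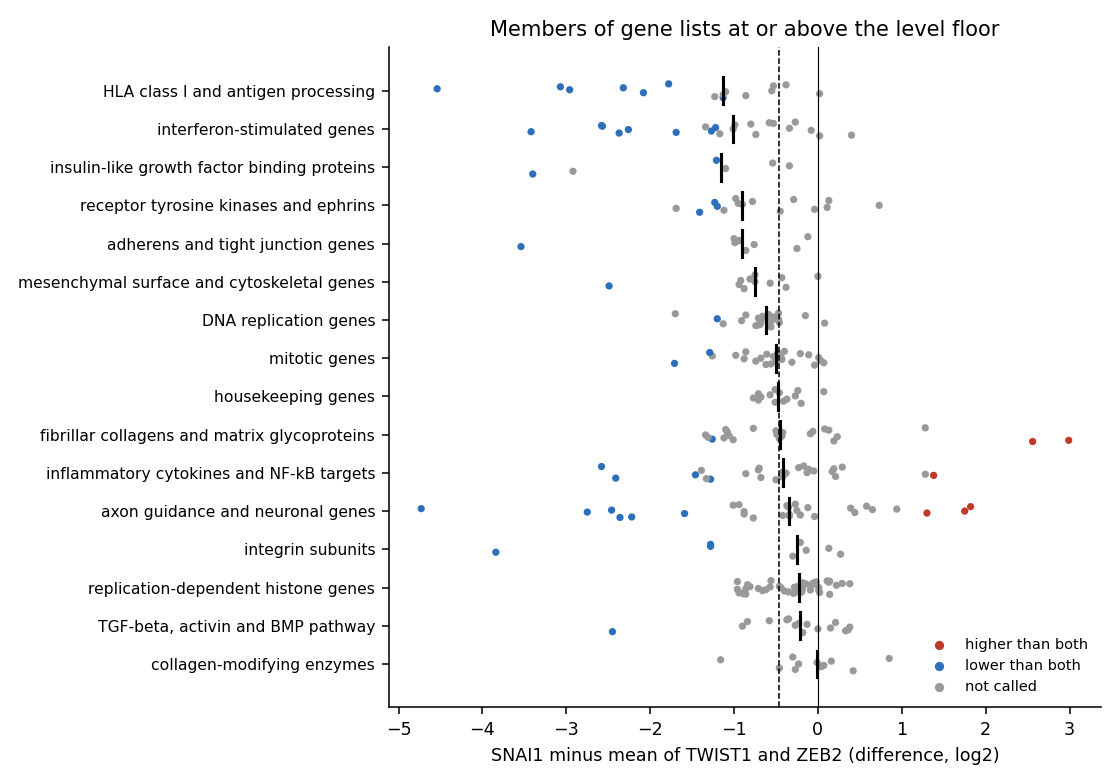
SNAI1 minus the mean of TWIST1 and ZEB2 (log2) for the members of 16 gene lists at or above the floor on any of the 3 arrays, with members called lower in blue, higher in red and others in grey. Black bars are list medians, the solid line marks no difference and the dashed line the protein-coding median of -0.46; the antigen processing and interferon-stimulated lists have medians of -1.13 and -1.01.

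Chromosome 5 stood apart from the other chromosomes analysed, a pattern noticed after the values were seen. Of its 525 protein-coding genes at the floor or above 103 were lower on SNAI1 (19.6%) and none was higher, against 328 of 4618 on the other chromosomes (7.1%). The median difference was -0.81 on chromosome 5, with quartiles of -1.13 and -0.5, and between -0.52 and -0.38 on every other chromosome. After median centring it was -0.45 on chromosome 5 and -0.07 elsewhere. The shift ran along the chromosome: of 135 windows of 10 Mb with at least 15 such genes, 15 lay on chromosome 5 and the 13 lowest medians were all among them. Against LACZ, the median of chromosome 5 genes was -0.41 on SNAI1, 0.24 on TWIST1, 0.41 on ZEB2 and -0.19 on FOXQ1, against -0.24, 0.23, 0.11 and 0.07 on the same arrays off chromosome 5. SNAI1 was thus below LACZ, and TWIST1 and ZEB2 above it, on chromosome 5 and off it. The TWIST1 median was nearly the same in both, while SNAI1 and FOXQ1 were lower and ZEB2 higher on chromosome 5. The cause was not tested. ERAP1, ERAP2, IRF1, IL7R and MAP1B lie on chromosome 5. Without that chromosome 5 of 12 antigen processing genes and 7 of 20 interferon-stimulated genes at the floor or above were lower, and their medians were -1.13 and -1.0.

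**Figure D5:**
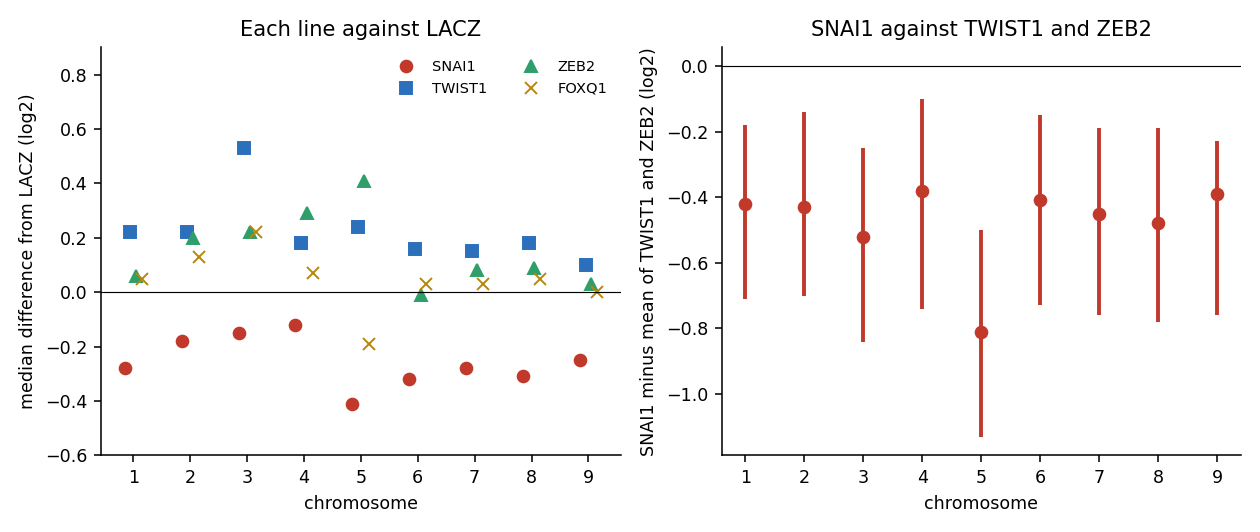
Left: median difference from LACZ (log2) of protein-coding genes at the floor or above, by chromosome, for the SNAI1, TWIST1, ZEB2 and FOXQ1 arrays. Right: median (point) and quartiles (bar) of SNAI1 minus the mean of TWIST1 and ZEB2 (log2) by chromosome, where chromosome 5 is lowest at -0.81 and chromosome 9 is covered in part.

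The LACZ and FOXQ1 arrays show on which side the control and the fourth factor stood for the called genes. The rule chose genes with SNAI1 as the extreme of 3 arrays. An array outside that choice therefore tends to fall towards TWIST1 and ZEB2 by construction, and the counts are a description only. Of the 64 higher genes, LACZ was at or beyond the TWIST1 and ZEB2 side for 44, between for 17 and at or beyond the SNAI1 level for 3. Of the 456 lower genes, LACZ was on the TWIST1 and ZEB2 side for 210, between for 184 and at or below the SNAI1 level for 62. FOXQ1 gave 43, 18 and 3 for the higher genes and 202, 204 and 50 for the lower genes, in the same order. PODXL and CADPS2, a protein of vesicle release, are 2 genes with LACZ near SNAI1. CADPS2 was at 5.36 on SNAI1, 8.62 on TWIST1 and 9.87 on ZEB2, with 5.04 on LACZ. Both genes were therefore above LACZ on TWIST1 and ZEB2 and close to it on SNAI1, while PSMB9, ITGA6 and TPD52 were below LACZ on SNAI1 by more than on TWIST1 and ZEB2.

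Where TWIST1 and ZEB2 differed 2-fold from each other, SNAI1 was mostly nearer the lower of their levels as deposited. It was nearer ZEB2 for 280 of the 416 genes higher on TWIST1, and nearer TWIST1 for 223 of the 324 genes lower on TWIST1. After median centring it was nearer ZEB2 for 168 of 371 and nearer TWIST1 for 186 of 352.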

How the data were processed

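RNA from 5 HMLE-derived lines was measured on Affymetrix arrays, 1 per line, grouped by the sample titles. The deposited values lie between 1.99 and 19.73 and were taken as log2; base, array model and the authors' normalization are not given in the sources used here. Values above 16 exceed a log2 of a 16-bit reading. The Transcriptome Analysis Console and build hg38 are named per the submitters' processing notes. A platform annotation gave 16126 of 65521 probe sets 1 gene symbol, 419 several and 48976 none. RefSeq (GRCh38.p14) held 15760 of the 16126, and 194 on another chromosome than their identifier were left out. A gene (14912 in all) was represented by its brightest probe set, by the mean of 5 arrays.

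Differences were taken on the deposited scale, with a floor of 4.72 and a 2-fold threshold. Scalings tried were quantile normalization, median centring and loess (span 0.3). Named genes were the EMT factors, the 15 protein-coding genes per direction furthest from the nearer line and called in every scaling, up to 4 called members and the closest member of each of 40 lists, and 5 other genes per direction. Marker, list and paralog examples beyond that, the chromosome 5 and protein-coding backgrounds, the non-coding classes and the printed promoters were chosen after values were seen. Members and lists were chosen with earlier results of these data known. Motif shares were limited to protein-coding genes, since under 80% of all called genes had a RefSeq promoter. For higher protein-coding genes 71.4% had one, so that check is void. Calling was tested on simulated data. Loess came from statsmodels 0.14.6 and figures from matplotlib 3.10.9, with numpy 2.4.6 and pandas 2.3.3 under Python 3.11.15.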

Additional observations from a re-analysis of the deposited data

How the results depend on the processing

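The counts of higher and lower genes and the share that was higher depended on the scaling, the threshold and the floor. The 3 values were 186, 182 and 50.5% after median centring, and 387, 107 and 78.3% after centring on the median protein-coding gene, which was added after seeing the data. Quantile normalization gave 67, 362 and 15.6%. A floor at percentile 75 gave 27, 284 and 8.7%, and a floor on all 3 levels alike 39, 399 and 8.9%. Thresholds of 1.5-fold gave 207 and 1386, and of 3-fold 11, 105 and 9.5%. Distance to the mean of both lines gave 132 and 825. Protein-coding genes alone gave 21 and 431, with 4.6% higher. The fewer or more genes under the floors, thresholds and gene class follow from their construction, and otherwise the cause was not tested. Loess, no floor, the other probe set choices and leaving out chromosome 5 (added after seeing the data; 63 and 350) stayed within 1.5 times of both counts. Median centring moved the medians of all 40 lists, and the distance of 85 of 127 named genes, by more than the yardstick of the median TWIST1 to ZEB2 difference. No sign of a called value turned. No paired analysis was possible because each line has 1 array, so the groups share fewer than 2 replicate numbers. No signal over background or detection call was used, so low levels are judged by the floor alone.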

Other observations

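Small nuclear RNA genes, which code for the RNA parts of the spliceosome, were higher on the SNAI1 array, opposite to protein-coding genes. This was noticed after the values were seen. Over the 8005 genes of any class at the floor or above, 0.8% were higher, 5.7% were lower and 1359 lay above both lines. Of 21 small nuclear RNA genes at the floor or above 8 were called higher and none lower, and 19 lay above both lines. Their median difference was 1.21, with a range of 0.3 to 2.14. The 8 called genes were all U1 or variant U1 genes on chromosome 1, so the calls cover 1 family of this class. The U1 gene RNU1-2 was at 13.13 on SNAI1, 11.93 on TWIST1, 11.32 on ZEB2, 10.81 on FOXQ1 and 11.13 on LACZ. RNU1-4 has the same values on every array, as do RNU1-3 and RNVU1-18 with each other, so these near-identical copies are not separate measurements. RNVU1-19, a variant U1 gene, was at 9.4 on SNAI1, 7.53 on TWIST1 and 6.99 on ZEB2. TWIST1 was also above ZEB2 in this class, with a median difference of 0.81. What moved this class was not tested.

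Of 228 microRNA genes at the floor or above 6 were higher on SNAI1 and none was lower, with a median of 0.17. Of genes of any class at the floor or above, 0.8% were higher and 5.7% lower. Among them MIR553 was at 7.5 on SNAI1, 6.31 on TWIST1 and 5.66 on ZEB2. These probe sets cover gene loci, and mature microRNAs were not measured separately. Long non-coding RNAs were called in both directions, 8 higher and 5 lower of 445, beside the same 0.8% and 5.7%. LINC01179 was at 7.49 on SNAI1, 5.29 on TWIST1 and 5.04 on ZEB2, with 3.51 on LACZ. ST7-AS1 was at 4.5 on SNAI1, 6.16 on TWIST1 and 6.05 on ZEB2. NADK2-AS1, on chromosome 5, was higher at 5.34 on SNAI1, 3.37 on TWIST1 and 3.61 on ZEB2, against the direction of the protein-coding genes there. Whether the probe sets separate strands is not given in the sources used here, so antisense genes may share signal with their partners.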
